A study of Schizosaccharomyces pombe with 2 samples.

Results

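The mitochondrial genome of the fission yeast Schizosaccharomyces pombe was examined in small RNA libraries from a wild-type (WT) strain and a strain lacking exo2 (exo2Δ). The members were chosen by position and type alone: every row of the deposited table on the mitochondrial chromosome (MT) that was not a coding sequence row. This gave 39 of 9139 such rows, made up of 25 tRNAs, 2 rRNAs, 11 gene rows and 1 XUT, an Xrn1-sensitive noncoding RNA as annotated by the study. All but the XUT lie on the plus strand. The value of a row is its tag density, the number of uniquely mapped reads on its strand per nt.

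Both strains, YAM2394 (WT) and YAM2397 (exo2Δ), were of mating type h+ and carried ade6-M210, ura4-D18 and leu1-32. In YAM2397 the exo2 gene was replaced by kanMX4. Exo2 is the fission yeast Xrn1, the cytoplasmic exonuclease that degrades RNA from its 5′ end. Cells grew exponentially in rich YES medium, and a gel slice of RNAs from 10 to 40 nt was sequenced. Each strain is represented by 1 library, which leaves no replicate error to set a difference against, and no comparison of the strains carries a p-value. Intervals are at 95% and reflect the counting of reads alone, as reads lacking molecular identifiers may be copies of 1 molecule. Each library came from a whole culture, so fewer cells with a given RNA and less of it per cell cannot be told apart. Exo2 coding exons held 251 reads in WT and 26 in exo2Δ, the direction of the labels. Where the 26 reads in the strain lacking the gene came from was not tested. The rows other than coding sequences summed to 13555082 reads in WT and 13678760 in exo2Δ.

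The mitochondrial genome of fission yeast is a small circle that encodes subunits of the respiratory chain and of the ATP synthase, a ribosomal protein, both rRNAs of the mitochondrial ribosome and a set of tRNAs sufficient for its own translation. Its genes are read from 1 strand into long precursors, and tRNAs lie between most of the other genes, so that cutting at tRNA ends also frees the mRNAs and rRNAs. Exo2 is not known as a mitochondrial enzyme. Mitochondrial RNA is degraded from the 3′ end by a complex of the helicase Suv3 (Rpm2) and the ribonuclease Rpm1.

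The table carries no gene names for these rows. Names came from the RefSeq annotation of ASM294v3, in which all 25 tRNAs had the same amino acid and order as in the table, and 23 also the same length. Its mitochondrial sequence of 19433 nt is not the one behind the table, since starts differ by up to 14 nt to one side and 121 nt to the other. Positions of values below are those of the table, and positions of sequences are those of RefSeq. The RNase P RNA gene rnpB has no row and was not analysed here.

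Sequences are shown for 8 tRNAs that carry the results: the neighbours tRNA-Phe and tRNA-Asp, both tRNAs for Arg and both for Ile, and tRNA-Ala and tRNA-Lys. They are the RefSeq gene sequences, plus strand, 5′ to 3′, with the anticodon in capitals. For tRNA-Arg(ucu) the counted row is 77 nt long and the printed RefSeq gene 72 nt.
tRNA-Phe(gaa), MT:14161-14232: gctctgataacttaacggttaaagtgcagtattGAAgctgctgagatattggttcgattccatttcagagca
tRNA-Asp(guc), MT:14240-14310: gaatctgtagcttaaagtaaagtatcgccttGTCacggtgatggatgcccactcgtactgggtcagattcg
tRNA-Arg(ucu), MT:9819-9890: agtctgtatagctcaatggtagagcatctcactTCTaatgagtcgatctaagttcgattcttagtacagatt
tRNA-Arg(ucg), MT:17462-17534: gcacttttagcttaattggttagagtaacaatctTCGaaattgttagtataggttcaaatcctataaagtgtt
tRNA-Ile(gau), MT:16664-16736: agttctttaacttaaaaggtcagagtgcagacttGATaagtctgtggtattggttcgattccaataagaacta
tRNA-Ile(cau), MT:17544-17615: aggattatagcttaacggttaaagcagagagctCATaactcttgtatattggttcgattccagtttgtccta
tRNA-Ala(ugc), MT:18059-18131: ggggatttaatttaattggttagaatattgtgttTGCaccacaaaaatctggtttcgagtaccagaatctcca
tRNA-Lys(uuu), MT:2858-2930: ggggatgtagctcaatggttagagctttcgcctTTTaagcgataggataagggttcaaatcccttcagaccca

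The RefSeq tRNA genes of the mitochondrion were 69 to 86 nt long, and all are thus longer than the 40 nt limit of the gel slice. By this limit the counted reads came from RNAs shorter than the annotated tRNA, and where in the tRNA they lay is not recorded in the table. The G and C content of these genes ran from 27.5% in tRNA-Cys to 47.9% in tRNA-Asp, against 30.1% for the whole mitochondrial sequence. Every stretch of 20 nt was unique in the genome for 21 of the 25 tRNAs, and the lowest share was 82.1% in tRNA-Pro. By contrast, 135 of the 171 nuclear tRNA genes had no unique stretch of 20 nt. Only uniquely mapped reads were kept, which bears on the nuclear tRNAs much more than on the mitochondrial ones.

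Mitochondrial rows held 26.51% of all feature reads in WT (Wilson 95% interval 26.49% to 26.53%) and 24.79% in exo2Δ (24.76% to 24.81%). They made up 6 of the 10 rows with the highest mean, among them the gene cob and the frame cob-I1 inside its intron, which share most of their reads. The 25 tRNAs took most of the mitochondrial reads, 3005605 in WT and 2826559 in exo2Δ, or 22.2% and 20.7% of all feature reads. The 11 gene rows took 3.36% and 3.25%, and the 2 rRNAs 0.976% and 0.871%. Rows of genes inside introns are counted again in the gene around them, in the members and in the total alike. The direction of the share turned on single rows with very many reads. Once tRNA-Asp was left out, the share was higher in exo2Δ, at 15.9% against 14.3% in WT. It was also higher, at 43.0% against 41.6%, once the nuclear row with the most reads was left out, the alanine tRNA row SPATRNAALA.06 with 4920919 WT reads and 5793538 exo2Δ reads.

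tRNA-Asp, which carries aspartate to the mitochondrial ribosome, had by far the most reads. This row (SPMITTRNAASP.01, MT from 14238 to 14308) was counted 1932019 times in WT and 1444646 times in exo2Δ, at a density of 27212 and 20304 tags per nt. It alone made up 64.3% of the mitochondrial tRNA reads in WT and 51.1% in exo2Δ, and its density in exo2Δ was 0.746 of that in WT (counting interval 0.745 to 0.748). It was the row with the third highest density of the whole table in WT. tRNA-Arg(ucu) (SPMITTRNAARG.01, 9818 to 9894) followed with 319727 and 239543 reads, 4152 and 3104 tags per nt, a fold of 0.748 (0.744 to 0.752). The gap between these tRNAs was 6.55-fold in WT and 6.54-fold in exo2Δ.

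By the mean reads of both libraries, tRNA-Lys, tRNA-Gly and tRNA-Gln came next, all of which were higher in exo2Δ. In exo2Δ itself, tRNA-Ile(gau) and tRNA-Leu(uaa) had more reads than tRNA-Gln and tRNA-Gly. tRNA-Lys (SPMITTRNALYS.01, 2857 to 2929) had 1665 tags per nt in WT and 3016 in exo2Δ. tRNA-Gly (SPMITTRNAGLY.01, 14314 to 14385) had 1339 and 1618 tags per nt, and tRNA-Gln (SPMITTRNAGLN.01, 15747 to 15819) had 1153 and 1644. The 5 tRNAs with the most reads in each library held 85.0% of the tRNA reads in WT and 77.1% in exo2Δ.

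Even the lowest tRNAs had at least 1134 reads in each library. tRNA-Arg(ucg) (SPMITTRNAARG.02, 17460 to 17532) was counted 1134 times in WT and 1858 times in exo2Δ, or 15.5 and 25.4 tags per nt. tRNA-Thr (SPMITTRNATHR.01, 9920 to 9992) had 22.1 and 21.4 tags per nt, and tRNA-Ser(uga) (SPMITTRNASER.02, 17635 to 17716) had 17.7 and 24.5. From the lowest to the highest tRNA, densities spanned 1752-fold in WT and 947-fold in exo2Δ. The median mitochondrial tRNA had 432 tags per nt in WT and 503 in exo2Δ.

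**Figure D1:**
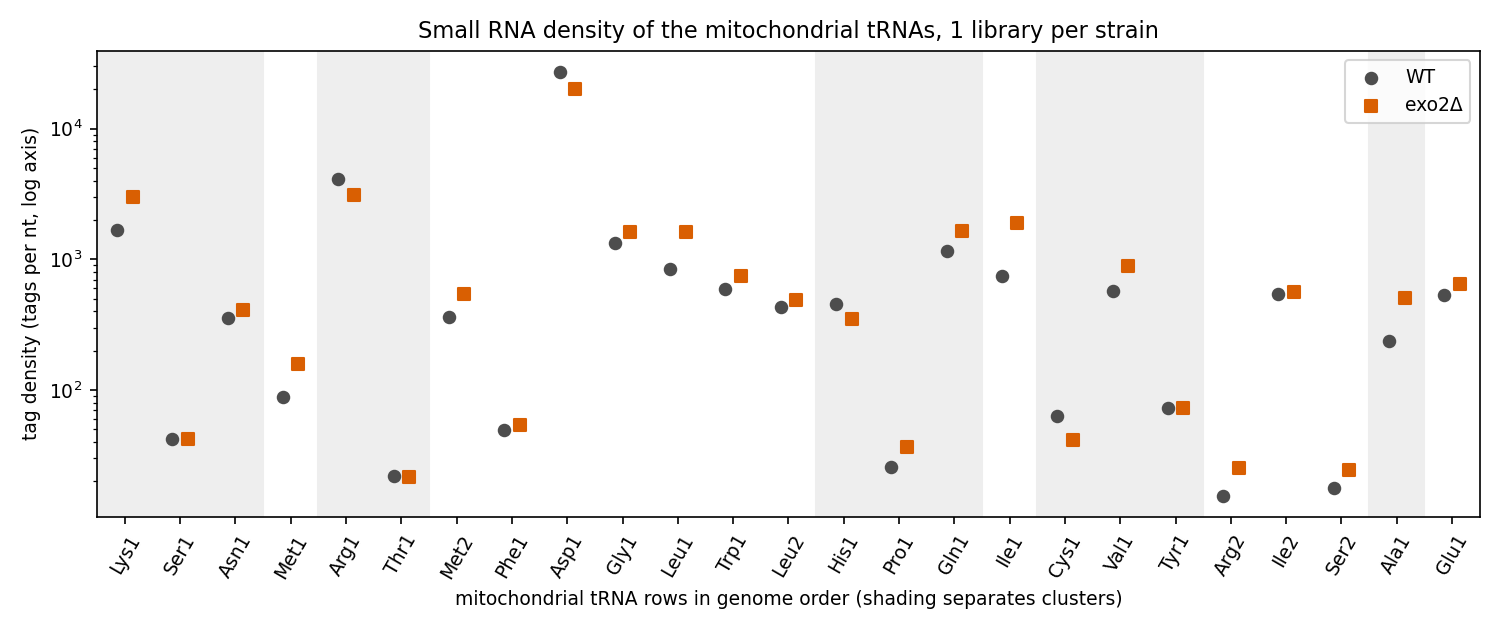
Tag density (tags per nt, log axis) of the 25 mitochondrial tRNA rows in genome order, with WT as circles and exo2Δ as squares, 1 library each. Shading separates clusters of tRNAs with gaps of at most 100 nt. tRNA-Asp stands at 27212 and 20304 tags per nt beside tRNA-Phe at 49.3 and 53.9, and both libraries trace nearly the same order. The digit after an amino acid is that of the table's identifier (Ile1 is SPMITTRNAILE.01).

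The order of the levels was nearly the same in both libraries. Across the 25 tRNAs, log2 densities had a Pearson r of 0.98 between the libraries, and densities a Spearman rho of 0.98. The points are different tRNAs of the same pair of libraries, so these values describe the libraries only. The rank of 9 tRNAs was identical, and that of 22 moved by at most 2 places. The largest move, of 4 places, was that of tRNA-His (SPMITTRNAHIS.01), from place 12 in WT to place 16 in exo2Δ. Counting intervals of neighbours in the order overlapped for 1 of 24 pairs in WT, tRNA-Met(cau)f with tRNA-Asn. In exo2Δ they overlapped for 3, tRNA-Gly with tRNA-Leu(uaa), tRNA-Ser(gcu) with tRNA-Cys, and tRNA-Arg(ucg) with tRNA-Ser(uga). Whether the other neighbours differ beyond a replicate spread cannot be told from 1 library.

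Level did not follow position. By a limit of 100 nt between them, the tRNAs fell into clusters, the longest of which holds 7 tRNAs from tRNA-Met(cau)f to tRNA-Leu(uag). Adjacent tRNAs of 1 cluster, with gaps of 5 to 38 nt, differed in density by a median of 17.5-fold in WT and 12.5-fold in exo2Δ over 15 pairs. The difference exceeded 10-fold in 8 pairs in WT and in 10 in exo2Δ. The widest step was that between tRNA-Phe and tRNA-Asp, the first sequences printed above, which lie 7 nt apart. tRNA-Phe (SPMITTRNAPHE.01, 14159 to 14230) was counted 3550 times in WT and 3891 times in exo2Δ, so that tRNA-Asp was 552-fold denser in WT and 377-fold in exo2Δ. tRNA-Arg(ucu) was 188-fold and 145-fold denser than tRNA-Thr, 25 nt behind it. The narrowest step in WT was the 1.38-fold between tRNA-Trp and tRNA-Leu(uag), 32 nt apart. In exo2Δ it was that between tRNA-Gly and tRNA-Leu(uaa), 8 nt apart, whose counting intervals overlapped. A read that spans a gap can be counted in both tRNAs, which would bring neighbours closer together.

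Length and base composition gave no clear order either. Over the 25 tRNAs, Spearman's rho of density with G and C content was 0.18 in WT and 0.17 in exo2Δ, and with length -0.22 and -0.20. These are descriptions over rows of the same libraries.

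Of the 20 amino acids, 5 have more than 1 mitochondrial tRNA, each with a different anticodon except for Met. The tRNAs for Arg were furthest apart, since tRNA-Arg(ucu), which reads AGA and AGG codons, was 267-fold denser than tRNA-Arg(ucg) in WT and 122-fold in exo2Δ. The other pairs lay within 4.10-fold of each other in both libraries. Initiator tRNA-Met(cau)f (SPMITTRNAMET.02, 14081 to 14153) had 363 tags per nt in WT and 541 in exo2Δ, and elongator tRNA-Met(cau)e (SPMITTRNAMET.01, 4591 to 4665) had 88.6 and 158. For Ile the ratio was 1.38 in WT and 3.39 in exo2Δ, as tRNA-Ile(gau) was higher in exo2Δ and tRNA-Ile(cau) (SPMITTRNAILE.02) was at 546 and 565 tags per nt. For Leu it was 1.96 and 3.29, and for Ser 2.39 and 1.73. These ratios within a library do not depend on its scaling.

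Between the strains, most mitochondrial tRNAs had a higher density in exo2Δ. As deposited, 19 of 25 were higher, with a median log2 ratio of exo2Δ over WT of 0.28, computed with 1 read added to both libraries. Of the 105 nuclear tRNAs with a mean of at least 10 reads, 38 were higher, with a median of -0.32. Of all 5945 rows past the same filter, 39.5% were higher, with a median of -0.13. For the 40 nuclear tRNAs with a mean of at least 1000 reads, a level that all 25 mitochondrial ones exceed, 19 were higher and the median was -0.16. These are descriptions of 1 pair of libraries, and the difference between mitochondrial and nuclear tRNAs was not tested. The number of higher tRNAs depended on the scaling, with 14 of 25 when the libraries were scaled on snRNAs and snoRNAs and 21 when scaled on nuclear mRNAs.

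**Figure D2:**
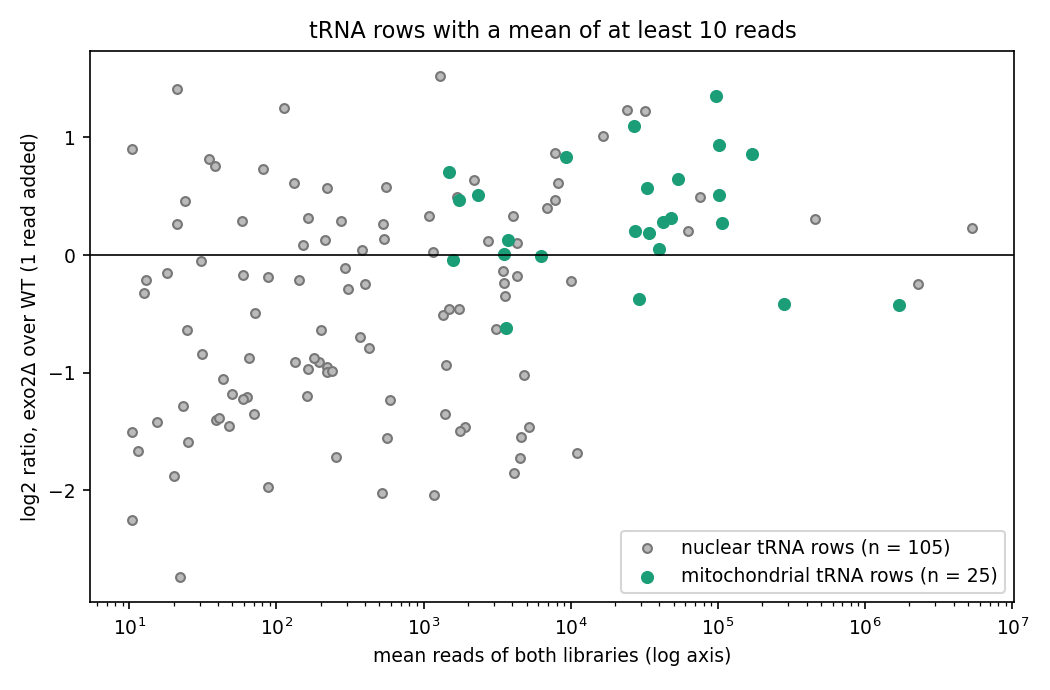
Log2 ratio of exo2Δ over WT (1 read added) against the mean reads of both libraries (log axis) for tRNA rows with a mean of at least 10 reads. Grey points are the 105 nuclear rows and green points the 25 mitochondrial rows. Mitochondrial rows lie between -0.62 and 1.35, and nuclear rows between -2.74 and 1.52.

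A direction was checked under 4 scalings of the libraries: as deposited, on snRNAs and snoRNAs, on the median ratio of nuclear mRNAs, and on the total without the 10 highest rows. The 5 largest ratios were those of tRNAs that were each higher in exo2Δ under all 4 scalings. tRNA-Ile(gau) (SPMITTRNAILE.01, 16662 to 16734) was counted 54817 times in WT and 139955 times in exo2Δ, where it was 2.55-fold denser (2.52 to 2.57). tRNA-Ala (SPMITTRNAALA.01, 18057 to 18129) had 17179 and 36794 reads, 2.14-fold higher (2.10 to 2.18). As deposited, these are the only tRNAs past 2-fold. Scaled on snRNAs and snoRNAs, tRNA-Ala was no longer past it, at a log2 ratio of 0.85, and scaled on nuclear mRNAs, tRNA-Leu(uaa) and tRNA-Lys passed it too, at 1.09 and 1.01. tRNA-Leu(uaa) (SPMITTRNALEU.01, 14394 to 14476) was 1.91-fold higher, tRNA-Lys 1.81-fold and tRNA-Met(cau)e 1.79-fold. In all, 14 tRNAs were higher under each of the 4 scalings. Beside the 5 above these were tRNA-Met(cau)f, tRNA-Gly, tRNA-Trp, tRNA-Pro, tRNA-Gln, tRNA-Val, tRNA-Arg(ucg), tRNA-Ser(uga) and tRNA-Glu. Scaled on snRNAs and snoRNAs, tRNA-Gly, tRNA-Glu and tRNA-Trp were barely higher, at log2 ratios of 0.029, 0.038 and 0.072.

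In the other direction, 4 tRNAs were lower in exo2Δ under each of the 4 scalings. tRNA-Cys (SPMITTRNACYS.01, 17082 to 17150) gave 4382 WT reads and 2858 exo2Δ reads, a fold of 0.651 (0.621 to 0.682). tRNA-Asp and tRNA-Arg(ucu), which had the most reads, were at 0.746 and 0.748, and tRNA-His (15550 to 15622) was at 0.770. As deposited, the density of tRNA-Thr was 0.971 of that in WT, with a counting interval of 0.905 to 1.04 that included no change. The counting intervals of tRNA-Ser(gcu), 0.960 to 1.05, and tRNA-Tyr, 0.957 to 1.03, also included it. Such intervals reflect neither replicate spread nor the scaling, so they do not tell whether the other tRNAs changed. As neighbours within a cluster, tRNA-Asp was lower in exo2Δ while the other 6 tRNAs of its cluster were higher, of which tRNA-Phe and tRNA-Leu(uag) turned lower when scaled on snRNAs and snoRNAs. The log2 ratio did not follow the level, with a Spearman rho of 0.10 against mean reads over the 25 tRNAs.

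**Figure D3:**
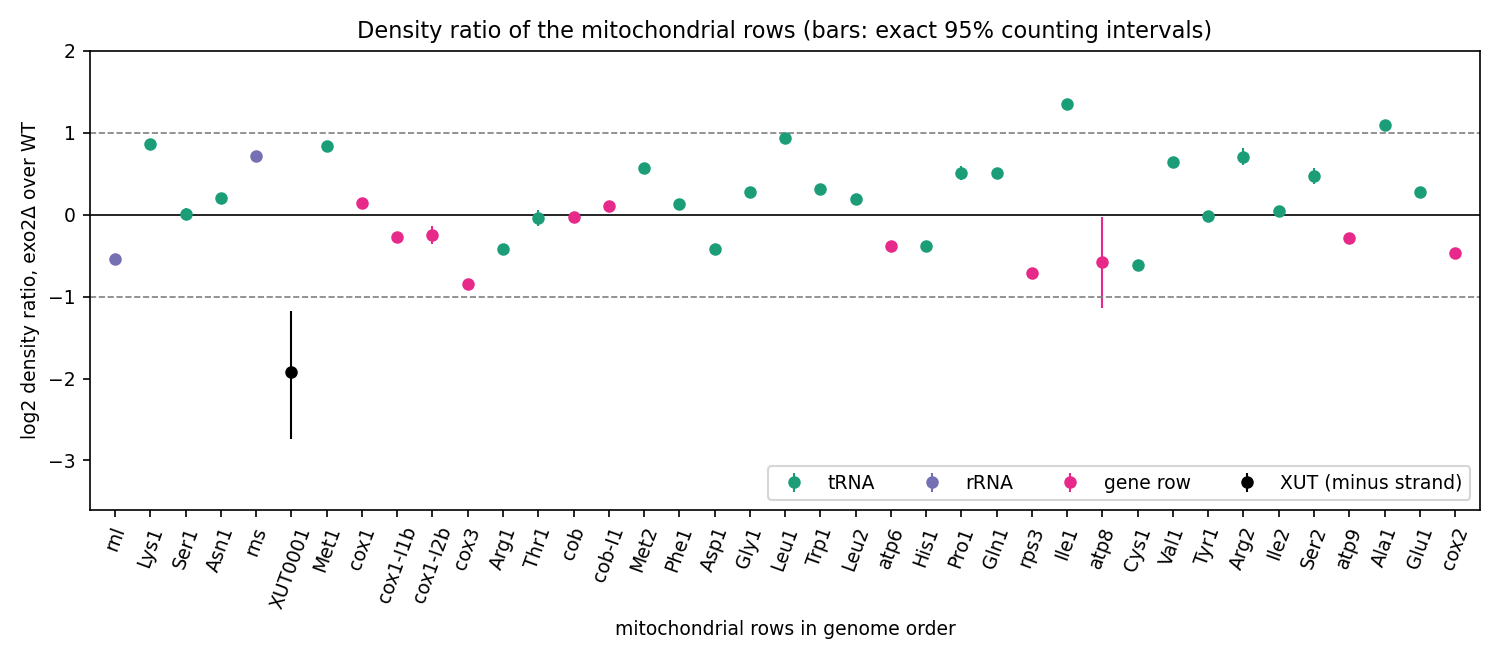
Log2 density ratio of exo2Δ over WT for the 39 mitochondrial rows in genome order, colored by type, with bars for exact 95% counting intervals and dashed lines at 2-fold. tRNA-Ile(gau) and tRNA-Ala lie above the upper line, XUT0001 lies below the lower line, and gene rows lie mostly below 0.

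Across all members, 2 of 39 (5.13%) were past 2-fold higher in exo2Δ, against 4.26% of all rows with a mean of at least 10 reads. Past 2-fold lower was 1 of 39 (2.56%), against 7.50% of all rows. That member was XUT0001, and all 39 passed the filter. Among the 37 members with a mean of at least 1000 reads, 5.41% were past 2-fold higher and 0 lower, against 3.09% and 7.72% of the 324 rows at this level. With counts of 2 and 1, these shares do not set the members apart from other rows. The robust SD of the log2 ratio over those 324 rows was 0.53, around a median of -0.22.

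The 2 rRNAs of the mitochondrial ribosome differed between the strains in opposite directions. The large subunit rRNA rnl (SPRRNA.01, 1 to 2822) gave 102611 WT reads and 70503 exo2Δ reads, or 36.4 and 24.9 tags per nt, 1.46-fold lower in exo2Δ (1.44 to 1.47). The small subunit rRNA rns (SPRRNA.02, 3131 to 4552) had 29647 and 48588 reads, or 20.8 and 34.1 tags per nt, 1.64-fold higher (1.61 to 1.66). Their order therefore changed, with rnl 1.74-fold denser than rns in WT and rns 1.37-fold denser than rnl in exo2Δ. Both directions held under the 4 scalings. tRNA-Asn ends at the base before rns starts, and a read across this border can be counted in both rows. It had 358 tags per nt in WT and 412 in exo2Δ.

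On the opposite strand of rns lies XUT0001 (3202 to 4550), all of whose 1349 nt are shared with it. It had 72 reads in WT and 19 in exo2Δ, 0.0534 and 0.0141 tags per nt, which is a fold of 0.263 (0.150 to 0.441). rns was 391-fold denser than this antisense row in WT and 2426-fold in exo2Δ. The study defined XUTs by their accumulation in exo2Δ total RNA, which is another measure than the small RNAs counted here.

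Among the genes for proteins, coding exons were less dense in exo2Δ for all but cox1. Exons of the 8 genes ranged from 0.476 to 55.2 tags per nt in WT, with atp8 lowest and cox2 highest. The cytochrome oxidase subunits, which form the last complex of the respiratory chain, did not share a direction. cox2 (SPMIT.11, 18561 to 19307) gave 41199 WT reads and 29744 exo2Δ reads, a fold of 0.720 (0.710 to 0.731). cox3 (SPMIT.04, 8947 to 9765) had 9605 and 5366 reads, a fold of 0.557 (0.539 to 0.576), and scaled on snRNAs and snoRNAs it was past 2-fold lower, at a log2 ratio of -1.09. The 3 exons of cox1 (SPMIT.01, 4886 to 8790) together had 45502 and 51937 reads, 28.2 and 32.1 tags per nt, a fold of 1.14, and scaled on snRNAs and snoRNAs the log2 ratio of these exons was -0.056.

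The 3 subunits of the ATP synthase were all lower in exo2Δ. atp9 (SPMIT.10, 17806 to 18030), which forms the membrane ring, had 50.03 tags per nt in WT and 40.96 in exo2Δ. atp6 (SPMIT.07, 14756 to 15529), the subunit beside that ring, had 15.3 and 11.8. atp8 (SPMIT.09, 16914 to 17060), a short accessory subunit, had only 70 and 47 reads, a fold of 0.670 (0.453 to 0.983). It lay between tRNA-Ile(gau) and tRNA-Cys, which had at least 2858 reads each in either library. The gene for the mitochondrial ribosomal protein Rps3 (SPMIT.08, 15954 to 16637) had 5712 and 3492 reads, a fold of 0.610 (0.585 to 0.636). The exons of cob (SPMIT.05), which encodes cytochrome b of the respiratory chain, had 26837 and 14656 reads, a fold of 0.545. Scaled on snRNAs and snoRNAs, the cob exons were past 2-fold lower too, at a log2 ratio of -1.12. The exons of these 7 genes were lower under each of the 4 scalings.

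**Figure D4:**
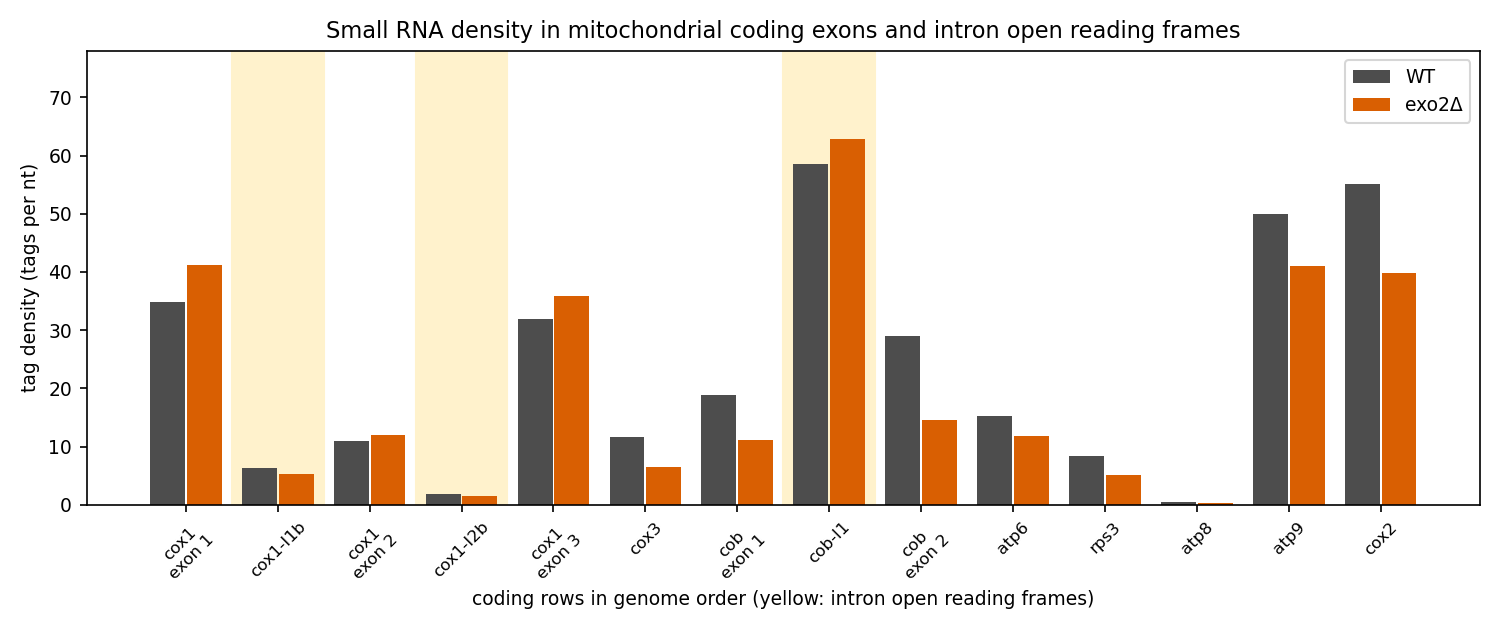
Tag density (tags per nt) in the coding exons and intron open reading frames of the mitochondrial genome, in genome order, with WT in grey and exo2Δ in orange, 1 library each. The intron frame cob-I1 stands at 58.5 and 62.9 tags per nt between cob exons at 18.9 and 29.0 in WT and 11.2 and 14.6 in exo2Δ, whereas the frames inside cox1 lie below its exons.

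The introns of cox1 and cob contain open reading frames of their own, which are the other 3 gene rows. Such frames encode proteins that help the intron splice or move. In cob, the frame cob-I1 (SPMIT.06, 10857 to 13280) held most of the reads of the whole gene row, 141826 of 171671 in WT (82.6%) and 152750 of 168733 in exo2Δ (90.5%). It was denser than the cob exons, by 2.54-fold in WT and 5.005-fold in exo2Δ. The exons on both sides were lower in exo2Δ, with folds of 0.590 (0.573 to 0.607) for exon 1 and 0.503 (0.489 to 0.518) for exon 2, whereas cob-I1 was at 1.07 (1.07 to 1.08). The cob gene row as a whole, at a fold of 0.981, shows neither of these.

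The cox1 introns showed the opposite order. cox1-I1b (SPMIT.02, 5291 to 6445) had 6.36 tags per nt in WT and 5.25 in exo2Δ, and cox1-I2b (SPMIT.03, 6966 to 7718) had 1.90 and 1.59. They were at 0.226 and 0.067 of the density of the cox1 exons in WT, and at 0.163 and 0.050 in exo2Δ. Their folds were 0.825 and 0.840, while those of exons 1, 2 and 3 were 1.18, 1.08 and 1.12. Intron reads relative to exon reads were therefore higher in exo2Δ for cob and lower for cox1, a contrast within each library that no scaling changes. Summed over exons and frames, cox1 parts exceeded the gene row by 716 reads in WT and 51 in exo2Δ, so that some reads were counted in both of 2 neighbouring parts. For cob the gene row exceeded its summed parts by 3008 reads in WT and 1327 in exo2Δ, so that at least as many lay outside the listed exons and frame. The differences of both genes are net, since reads counted in 2 parts and reads outside the parts offset each other.

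Nuclear and mitochondrial tRNAs for the same amino acid were set side by side. Mitochondrial rows held more reads than the nuclear rows for 14 of 20 amino acids in WT and 15 in exo2Δ. For Asp, mitochondrial rows took 99.6% of the reads in WT and 99.8% in exo2Δ, against 7080 and 2436 reads in 8 nuclear rows. For Trp they took 99.8% and 99.9%. At the other end were Ala, with 0.348% and 0.631%, and Gly, with 3.25% and 4.32%. Reads that match identical nuclear copies equally well are not kept under unique mapping. Even so, 105 of the 171 nuclear rows had a mean of at least 10 reads. With 135 RefSeq genes lacking a unique stretch of 20 nt, rows without one also held reads, and the reason was not tested. How many reads were lost was not determined here, so these shares are not those of the cell.

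**Figure D5:**
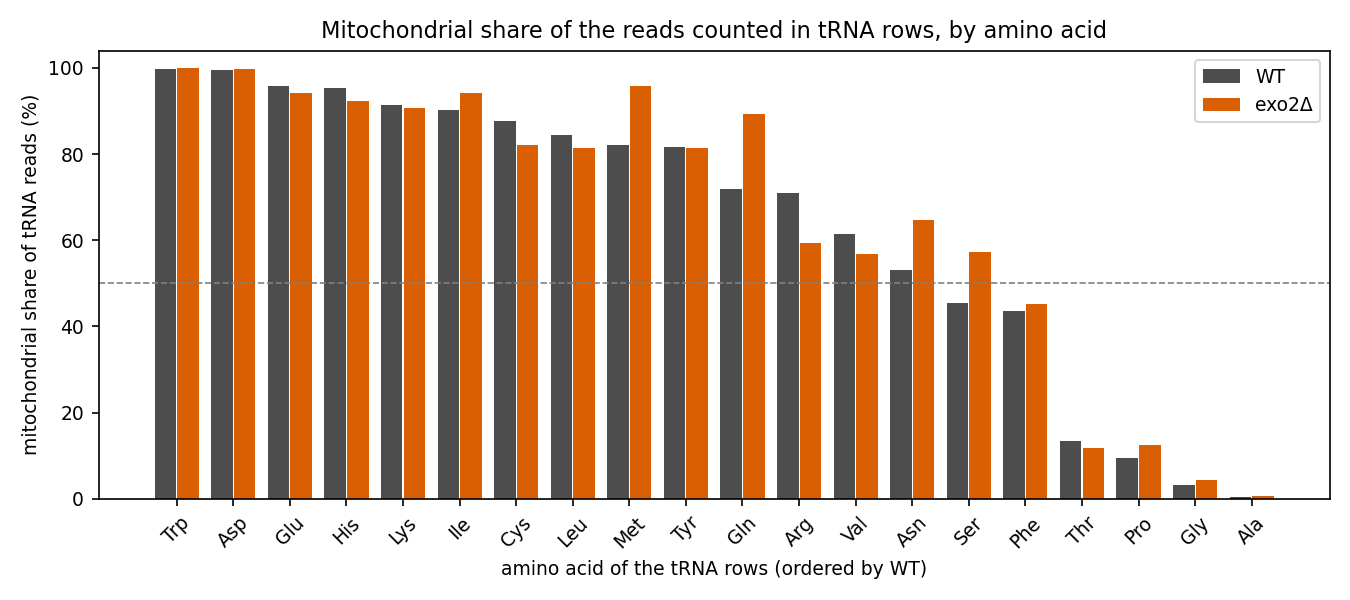
Mitochondrial share (%) of the reads counted in all tRNA rows of an amino acid, ordered by WT, with WT in grey and exo2Δ in orange. The dashed line marks 50%, which 14 amino acids exceed in WT and 15 in exo2Δ. Asp stands at 99.6% and 99.8% and Ala at 0.348% and 0.631%.

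Small RNAs of nuclear genes for mitochondrial RNA factors were looked up as well. The list of 16 held the mitochondrial RNA polymerase gene rpo41, its partner mtf1, the decay genes suv3 (rpm2) and rpm1, the tRNA 3′ end nuclease trz2, the nuclease pnu1, the RNA helicase mss116 and 9 pentatricopeptide repeat genes. All 16 passed the filter, with 60 to 668 reads per library. None was past 2-fold higher and 1 (6.25%) was past 2-fold lower, against 4.26% and 7.50% of all rows. The lower one was ppr10, with 124 reads in WT and 60 in exo2Δ, a fold of 0.483 (0.349 to 0.662). Of the 16, 9 were higher in exo2Δ to any degree, against 37.1% of nuclear mRNAs past the filter. Their median log2 ratio was 0.12, against -0.15 for these nuclear mRNAs and -0.13 for all rows, a difference that was not tested.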

How the data were processed

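Small RNAs were sequenced as single reads of 40 nt from 1 WT and 1 exo2Δ library. Per the labels and the study's methods, the authors trimmed adapters (cutadapt), mapped reads with Bowtie 0.12.8, kept uniquely mapped ones with up to 3 mismatches (build ASM294v2), and deposited a signal per annotated row, the tag density in tags per nt. Small RNA densities are described by the study for RNAs of 18 to 30 nt, and the table does not record whether its values carry that filter.

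Density times length was whole in WT, and in exo2Δ a multiple of 0.998, the worth of 1 read there, in 100% of 19343 rows. Reads were recovered from these steps (tolerance 1e-06 of a read), and densities compared as deposited. Log2 ratios had 1 read added. Fold intervals are exact binomial, level intervals exact Poisson, and share intervals Wilson, at 95%. A row was past 2-fold by its density ratio, where the mean was 10 reads or more. The 10204 coding sequence rows were left out of totals. A cluster was tRNAs with gaps of at most 100 nt. Scripts used Python 3.11.15, scipy 1.17.1 and pandas 2.3.3, and were checked on simulated data.

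Members and lists were chosen with earlier results of these data known. Named by rule were all rows other than tRNAs, the 5 tRNAs with the most reads, the 3 with the fewest, and the 5 largest ratios each way. Other tRNAs named were chosen after their values were seen.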

Additional observations from a re-analysis of the deposited data

How the results depend on the processing

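With 1 library per strain, no replicate could be left out. No paired analysis was possible because WT and exo2Δ are single libraries. Scaling on snRNAs and snoRNAs moved log2 ratios by -0.24 and scaling on the median ratio of nuclear mRNAs by 0.15. On these the median log2 ratio of the mitochondrial tRNAs was 0.038 and 0.44 in place of 0.28, and members past 2-fold were 1 higher and 2 lower, and 4 higher and 1 lower. The first setting dropped tRNA-Ala and added cox3, and the second added tRNA-Leu(uaa) and tRNA-Lys. On snRNAs and snoRNAs, 0 of 8 protein genes had denser exons in exo2Δ in place of 1, an alternative added after the data were seen, as was the minimum of 1000 reads, which left 0 lower. A mean of at least 50 reads left 0 lower, since XUT0001 is under it, and a ratio over 4 left 0 and 0. Pseudocounts of 0.1 and 5 reads moved no result by more than its counting interval, and leaving out the filter changed no count.

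The mitochondrial share in WT and exo2Δ was 28.8% and 36.5% without the 10 highest rows, and 14.3% and 15.9% without tRNA-Asp, and 41.6% and 43.0% without the nuclear row with the most reads (added after the data were seen), all 3 of the opposite direction, and 28.5% and 25.9% of summed density. The cause was not tested.

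On snRNAs and snoRNAs the log2 ratio reversed for tRNA-Ser(gcu) (-0.24), tRNA-Asn (-0.041), cox1 (-0.10), cob-I1 (-0.14), tRNA-Phe (-0.11), tRNA-Leu(uag) (-0.057) and tRNA-Ile(cau) (-0.20). On nuclear mRNAs it reversed for tRNA-Thr (0.11), cob (0.13) and tRNA-Tyr (0.14), and on the total without the 10 highest rows for tRNA-Ser(gcu) (-0.018). Taking tRNA and rRNA reads off gene rows was not run, because 0 such rows overlap a gene row.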
